A study of Mus musculus with 2 samples.

Results

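The antigen processing and MHC genes of skin lymphatic endothelial cells (LECs) were compared between a control library and a library labelled Dot1l knockout. Their members were all rows whose symbol begins with H2-, the mouse major histocompatibility complex (MHC), together with 17 named genes of peptide processing, loading and costimulation. The rule took 60 of the 24319 rows, using symbols alone. They comprised 32 class I heavy chain rows, 10 class II chain rows, 11 genes of the class I peptide pathway, 3 genes of the class II pathway (Ciita, Cd74 and Ifi30), the costimulatory ligands Cd80 and Cd86, the class I-like Cd1d1, and H2-Ke6, which carries the prefix but encodes a steroid dehydrogenase and is no MHC chain.

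Both libraries were made from skin LECs of C57BL/6 embryos at E15.5 (embryonic day), and the genotypes were labelled wild type for the control library and Dot1l Knockout for the other. Dot1l encodes the methyltransferase that modifies lysine 79 of histone H3. The extraction protocol writes the mutant as Dot1lΔEC and gives each library as RNA pooled from 2 to 3 biological replicates, so each genotype had 1 library, no difference below has a replicate check, and no test was possible. The driver of the deletion, the way the cells were purified, and any culture before sequencing under the growth protocol in the labels are not stated in the sources at hand.

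MHC class I molecules display peptides of cytosolic proteins on nearly all nucleated cells. Peptides cut by the proteasome enter the endoplasmic reticulum through the TAP transporter, are trimmed there and are loaded onto a heavy chain paired with beta-2 microglobulin. MHC class II molecules display peptides from endosomes, mainly on dendritic cells, macrophages and B cells, and their genes depend on the coactivator CIITA. Lymphatic endothelium is known to present antigen on class I, and adult lymph node LECs also carry class II at a low level.

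The values are FPKM (fragment counts scaled by transcript length and by the number of mapped fragments), which are per length and so allow levels of different genes to be compared. Differences are on the scale log2(FPKM + 1), the library labelled knockout minus control, which understates the change of genes at low values. A member counts as higher or lower where this difference reached 2-fold and either library had 1 FPKM or more. Dot1l itself was 5.86 FPKM in the control library, against 10.4 FPKM in that labelled knockout. Reads from all of its exons enter these values and the labels do not say which exons were removed, so the label is not checked by them. Low values step in whole fragments, which puts the depth near 10200000 (control) and 9080000 fragments (labelled knockout), provided that the authors applied no other scaling. At that depth 1 fragment in a transcript of 1500 nt is 0.0751 FPKM in control, against 0.0846 FPKM in the other library. Markers of other cell types differed strongly between the libraries. All 19 macrophage markers and all 10 mast cell markers passed as higher, while all 10 pan-endothelial markers and 6 of the 7 lymphatic endothelial markers that met the minimum passed as lower in the library labelled knockout. Over all 13296 genes that met it, 16.8% were higher and 15.49% lower. For 10 macrophage and 3 mast cell markers the minimum was met only through the library labelled knockout, which fixed their direction. In bulk RNA, a change in the number of cells of a type and a change of RNA per cell cannot be told apart.

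Promoter sequences are shown first because the class I and class II genes are classically read through a small set of shared promoter elements. RefSeq (GRCm38.p6) gave a promoter for 42 of the 60 members, from 250 bases before to 50 after the first listed start. Both strands of each were searched for 5 motifs. These were the interferon-stimulated response element (GAAA, any 2 bases, GAAA), the gamma-activated site (TTCNNNGAA), a kappa B motif (GGG, any 2 bases, TT, any base, CC), the Y box (CTGATTGG) and an X box motif (AG, any 2 bases, AC, any base, GATG). The lines below give the 250 bases before the start, 5′ to 3′ on the gene's strand, with matches to any of these motifs in capitals. They show a class I light chain gene, the 2 classical class I heavy chain genes, an inducible proteasome gene and 2 class II genes.

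B2m (chr2:122147437-122147686, plus strand): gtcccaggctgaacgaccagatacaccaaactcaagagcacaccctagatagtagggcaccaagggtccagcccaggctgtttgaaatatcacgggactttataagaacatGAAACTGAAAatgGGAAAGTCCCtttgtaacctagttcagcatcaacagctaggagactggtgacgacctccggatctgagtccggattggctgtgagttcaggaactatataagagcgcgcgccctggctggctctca

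H2-K1 (chr17:34000348-34000597, minus strand): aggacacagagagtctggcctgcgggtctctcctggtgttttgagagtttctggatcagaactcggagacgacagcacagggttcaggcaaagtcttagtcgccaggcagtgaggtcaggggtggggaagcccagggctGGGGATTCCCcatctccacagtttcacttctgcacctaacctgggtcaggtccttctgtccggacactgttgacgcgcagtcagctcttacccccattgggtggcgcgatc

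H2-D1 (chr17:35262844-35263093, plus strand): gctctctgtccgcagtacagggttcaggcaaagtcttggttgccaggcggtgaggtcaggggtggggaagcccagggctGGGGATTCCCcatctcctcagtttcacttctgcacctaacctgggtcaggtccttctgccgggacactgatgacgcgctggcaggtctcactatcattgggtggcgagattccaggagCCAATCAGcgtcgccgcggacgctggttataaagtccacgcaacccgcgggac

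Psmb9 (chr17:34187331-34187580, minus strand): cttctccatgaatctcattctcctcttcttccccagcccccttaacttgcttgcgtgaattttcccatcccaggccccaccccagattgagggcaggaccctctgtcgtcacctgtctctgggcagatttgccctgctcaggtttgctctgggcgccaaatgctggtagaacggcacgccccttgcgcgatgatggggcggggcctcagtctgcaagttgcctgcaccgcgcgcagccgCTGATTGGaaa

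H2-Aa (chr17:34287824-34288073, minus strand): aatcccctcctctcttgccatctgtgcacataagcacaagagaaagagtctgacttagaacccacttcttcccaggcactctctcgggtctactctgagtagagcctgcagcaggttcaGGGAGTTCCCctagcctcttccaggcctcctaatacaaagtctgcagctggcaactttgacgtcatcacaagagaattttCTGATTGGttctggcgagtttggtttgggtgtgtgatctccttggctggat

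H2-Eb1 (chr17:34305617-34305866, plus strand): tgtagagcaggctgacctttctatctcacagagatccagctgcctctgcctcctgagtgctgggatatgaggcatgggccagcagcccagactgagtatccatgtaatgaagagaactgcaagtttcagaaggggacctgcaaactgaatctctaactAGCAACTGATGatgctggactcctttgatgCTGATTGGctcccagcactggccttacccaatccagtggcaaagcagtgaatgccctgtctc

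In B2m the capitals mark the interferon-stimulated response element, starting 139 bases before the start, and a kappa B motif 126 bases before it. H2-K1 and H2-D1 each hold a kappa B motif with the same letters. Their Y boxes lie 53 bases before the start in H2-D1 and 8 bases after it in H2-K1, outside the bases shown. The Psmb9 window runs into that of Tap1 on the opposite strand, and the windows share 275 bases, including the Y box printed here. H2-Aa holds a kappa B motif and a Y box. H2-Eb1 holds an X box motif 92 bases and a Y box 62 bases before the start.

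Over the members with a promoter, the Y box was found in 19 of 42 (45.2%), against 4.31% of all 27025 promoters. The X box motif was found in 9 (21.4%, against 0.999%), the kappa B motif in 8 (19%, against 4.71%), the interferon-stimulated response element in 5 (11.9%, against 3.49%) and the gamma-activated site in 4 (9.52%, against 8.47%). By class, the Y box was in 13 of 22 class I heavy chain promoters and 4 of 8 class II promoters, and the X box motif in 4 of 22 and 4 of 8. Many members are copies of one another, so these counts are not independent. Of the class I genes with a Y box, many were not expressed: 8 of the 13 class I genes with a Y box were H2-M genes under 1 FPKM in both libraries. A match is a description of the letters in this window. Only the letter patterns given above were searched, so a missing match, as for the interferon-stimulated response element in H2-K1 and H2-D1, does not show that an element is absent.

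Of the 60 members, 41 reached 1 FPKM in at least 1 library. In this set 30 passed as higher in the library labelled knockout, 2 as lower and 9 as neither. That is 73.2% higher and 4.88% lower, where 16.8% of all 13296 genes that met the same minimum were higher and 15.49% lower. The median difference was 1.84 on the log2 scale, beside 0.0030 for all genes. For 17 of the 41 the minimum was met only through the library labelled knockout, so their direction was fixed by it. Among the 24 members at 1 FPKM or more in control, 14 were higher and 2 lower, where 11.1% of all genes at that control level were higher and 17% lower. The members' share of all FPKM was 0.134% (control) and 0.399% (labelled knockout). Summed macrophage markers were 69.63 and 4235 FPKM in the same libraries, and their part in the members' values was not tested.

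**Figure D1:**
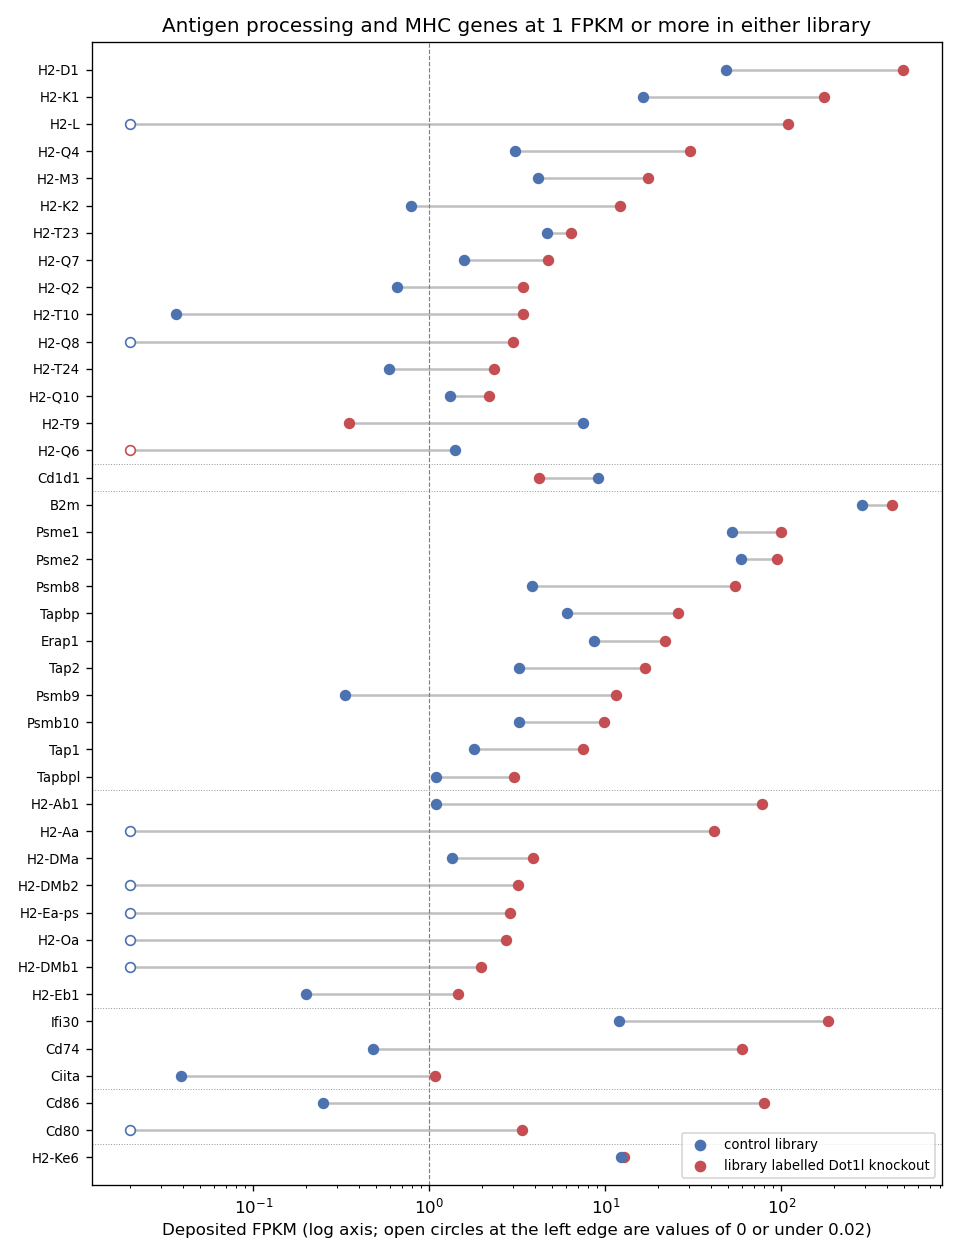
Deposited FPKM (log axis) of the 41 members at 1 FPKM or more in either library, 1 point per library, with dotted lines between the gene groups and open circles at the left edge for values at 0 or too low for the axis. The library labelled knockout lies to the right of control for all rows except H2-T9, H2-Q6 and Cd1d1, and Cd86 spans 0.248 to 80.1 FPKM.

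The plot of members by library shows the 3 rows with lower values in the library labelled knockout, H2-T9, H2-Q6 and Cd1d1. After rescaling the libraries to the same sum of 1000000, the median of all genes moved to -0.33 and the directions of H2-Ke6 and H2-T22 turned, but no member that had been called higher or lower changed direction under any scaling tried.

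The classical class I heavy chains carried most of the class I signal and were about an order of magnitude higher in the library labelled knockout. H2-D1 was 48.2 FPKM in control against 493 FPKM in the library labelled knockout, a ratio of 10.2 and a log2 difference of 3.33. H2-K1 was 16.4 and 176 FPKM, a ratio of 10.7 and a log2 difference of 3.35. Both encode the heavy chains that present peptides to CD8 T cells. As listed, H2-D1 stood at 2.94 FPKM per FPKM of H2-K1 in control and at 2.81 in the other library. These proportions leave out the H2-L row, and how reads were divided among these copies is not known. H2-L, a classical gene that the C57BL/6 haplotype is known to lack, had 0.000234 FPKM in the control library, against 108 FPKM in that labelled knockout. The first of these values is far below that of 1 fragment, so no fold is given. H2-D1 and H2-L together summed to 48.2 and 601.7 FPKM. H2-K2, a pseudogene beside H2-K1, was 0.784 and 12.1 FPKM.

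The coding sequences show how far reads of these genes can be told apart. Those of H2-K1 and H2-D1 were 88.3% identical over the whole alignment. The stretch in which they differ most is printed first, with differing bases in capitals, and a stretch in which they are identical follows. Both come from the GENCODE M21 transcripts (GRCm38), read 5′ to 3′ and counted from the first coding base.

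H2-K1 (coding bases 480 to 569): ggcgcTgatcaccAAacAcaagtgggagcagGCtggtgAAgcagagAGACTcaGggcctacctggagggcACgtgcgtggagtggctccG

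H2-D1 (coding bases 489 to 578): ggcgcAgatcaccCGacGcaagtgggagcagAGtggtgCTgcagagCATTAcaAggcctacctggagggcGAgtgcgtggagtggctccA

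H2-K1 and H2-D1 (coding bases 738 to 827 and 747 to 836): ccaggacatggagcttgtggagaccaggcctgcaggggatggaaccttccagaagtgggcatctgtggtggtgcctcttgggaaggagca

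The first pair differs at 17 of 90 bases and the last stretch at none. Of the 50-base stretches of the H2-K1 transcript, 8.79% also occurred in a transcript of another gene, and for H2-D1 14.3% did. For Psmb8, Psmb9, B2m, H2-Aa, H2-Ab1, H2-Eb1, Cd74, Cd80, Cd86 and Ciita the share was 0%. Among the other class I rows the share reached 44.7% in H2-T22, 42.9% in H2-T10 and 40.2% in H2-Q7. The coding sequences of H2-T10 and H2-T22 were 96.3% identical and those of H2-Q6 and H2-Q7 93.1%. The labels give no read length, and 50 bases were chosen as a round length. GENCODE M21 held no transcript under the names H2-L, H2-Q8, H2-Q9 and H2-T9. Stretches shared with these rows were therefore not counted, and the class I shares may be too low.

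Over all 32 class I rows, 15 met the minimum, 11 of these were higher, 2 lower and 2 within 2-fold (73.3% higher, beside 16.8% of all genes), with a median of 1.84. Since 6 of the 15 met the minimum only through the library labelled knockout, their direction was fixed. Of the 9 class I rows at 1 FPKM or more in control, 5 were higher and 2 lower, with a median of 1.16, beside 11.1% and 17% of all genes at that control level. The class I rows summed to 92.33 FPKM in control against 867.4 FPKM in the library labelled knockout, a ratio of 9.39 taken over all copies together. H2-D1 and H2-L made up 52.2% of the class I sum in the control library, against 69.4% in the other, and H2-K1 17.7% and 20.3%. With a pseudocount of 5 in place of 1, 6 class I rows passed as higher and the median was 0.68, and with a minimum of 5 FPKM 6 passed.

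**Figure D2:**
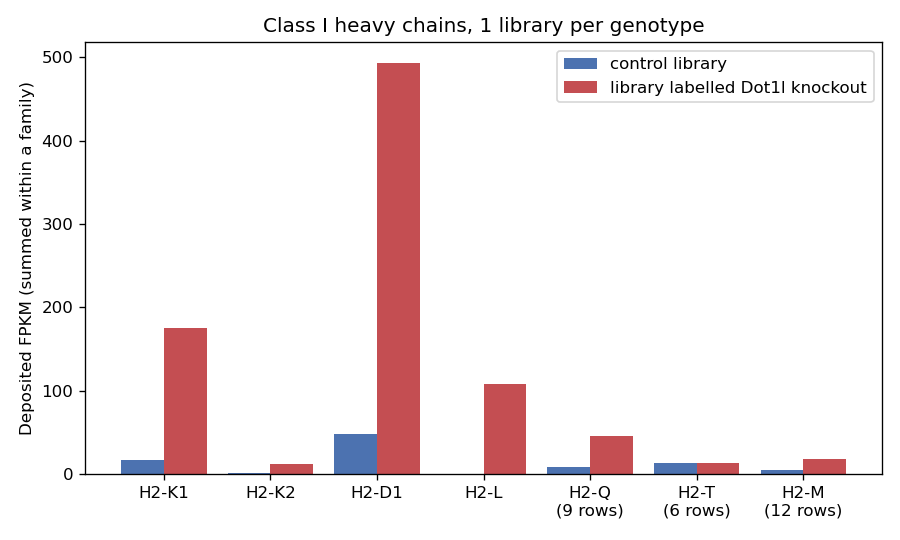
Deposited FPKM (linear axis from 0) of 4 class I rows and the summed FPKM of the H2-Q, H2-T and H2-M families in the 2 libraries. H2-D1 (48.2 and 493) is the tallest pair, H2-L shows no visible bar in control, and the H2-T family stands at 13.59 and 13.37.

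Among non-classical class I genes the families differed, as the plot of class I rows shows. The 9 H2-Q rows summed to 8.15 FPKM in the control library, against 45.6 FPKM in that labelled knockout. The largest part was H2-Q4, at 3.05 and 30.3 FPKM. H2-Q2 was 0.658 and 3.41 FPKM, H2-Q1 0.160 and 0.942 FPKM, H2-Q10, which encodes a secreted class I molecule, 1.30 and 2.18 FPKM, and H2-Q5 was listed at 0 and 0.432 FPKM. H2-Q6, H2-Q7, H2-Q8 and H2-Q9 are the near-identical genes of the Qa-2 antigen, and their values went opposite ways. H2-Q6 fell from 1.39 FPKM (control) to 2.65e-05 FPKM (labelled knockout), which counts as lower. H2-Q7 was 1.58 and 4.75 FPKM, H2-Q8 0.00113 and 2.99 FPKM, and H2-Q9 2.94e-07 and 0.573 FPKM. The sum of these 4 rows was 2.976 FPKM in control, against 8.31 FPKM in the other library. Values this far below 1 fragment stood in 4 member rows (H2-L, H2-Q6, H2-Q8 and H2-Q9), all of them class I genes.

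The H2-T family as a whole had nearly the same summed value in both libraries, 13.59 and 13.37 FPKM. Within it H2-T9 was 7.45 FPKM in control against 0.349 FPKM in the library labelled knockout, the other member counted as lower, while H2-T10 was 0.0363 and 3.39 FPKM and H2-T22, which gamma delta T cells can recognise, 0.868 and 0.914 FPKM. These 3 relatives summed to 8.358 and 4.657 FPKM. H2-T23 encodes Qa-1, which inhibits natural killer cells through an inhibitory receptor, and was 4.65 and 6.38 FPKM, within 2-fold. H2-T24 was 0.587 and 2.33 FPKM, and its log2 difference of 1.07 became 0.97, under the threshold, with equal upper quartiles. H2-T3 was listed at 0 in both libraries. Both class I rows that were counted as lower, H2-T9 and H2-Q6, lie in groups of near-identical genes whose split is uncertain.

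In the H2-M family a single gene was expressed. H2-M3, which presents formylated peptides, was 4.15 and 17.5 FPKM, a ratio of 4.21. The other 11 H2-M rows stayed below 1 FPKM in both libraries, the highest being H2-M5 at 0.710 and 0.437 FPKM. Of all members, 7 were listed at 0 in both libraries, among them H2-M1, H2-M11 and H2-M10.1. H2-Bl, a further class I row, was 0.102 and 0.769 FPKM. Cd1d1, which presents lipids to natural killer T cells, had the opposite direction from most members, at 9.05 FPKM in the control library, against 4.17 FPKM in that labelled knockout, a log2 difference of -0.96 that did not reach 2-fold on this scale. The difference passed the threshold after rescaling to equal sums (-1.36) or equal upper quartiles (-1.08). Of the 50-base stretches of Cd1d1 25.8% also occur in a transcript of Cd1d2.

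The light chain differed much less than the heavy chains. B2m, which every class I molecule shares, was 288 FPKM in control against 424 FPKM in the library labelled knockout, a ratio of 1.47 and a log2 difference of 0.56. In control B2m stood at 3.12 FPKM for each FPKM of summed heavy chain, and in the other library at 0.489. Control thus had more light chain than heavy chain transcript per length, and the library labelled knockout had less.

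All 11 genes of class I peptide processing had higher values in the library labelled knockout, and 7 of them (63.6%) passed 2-fold, against the 16.8% of all genes given above. Psmb9 met the minimum only through that library, which fixed its direction. Of the 10 at 1 FPKM or more in control, 6 were higher, beside 11.1% of all genes at that control level. The median difference of the 11 genes was 1.36. With a pseudocount of 5, 4 passed and the median was 0.87. The inducible catalytic subunits of the proteasome replace the constitutive ones in immune cells and after interferon, and Psmb8 and Psmb9 had the largest differences of the 11 genes. Psmb8 was 3.84 and 54.4 FPKM, a ratio of 14.2. Psmb9 was 0.330 and 11.5 FPKM, where the control value rests on about 3.90 fragments. Psmb10 was 3.21 and 9.83 FPKM, a ratio of 3.06. The activator subunits Psme1 (52.5 and 99.7 FPKM) and Psme2 (58.6 and 94.1 FPKM) were within 2-fold. Of the Psme2 stretches 59.3% are shared with other genes, chiefly Psme2b.

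Each inducible subunit was set against the constitutive subunit whose place it takes. The FPKM of Psmb8 was 26.4% of that of Psmb5 in the control library, against 139% in the library labelled knockout. Psmb9 was 0.379% and 9.24% of Psmb6, and Psmb10 was 3.00% and 7.68% of Psmb7. The summed inducible subunits were 7.379 and 75.72 FPKM, and the summed constitutive counterparts 208.6 and 292 FPKM. In a list of 17 constitutive proteasome and assembly genes, 1 was higher and 16 lay within 2-fold, with a median of 0.51. The higher one was Psmb5, at 14.6 and 39.2 FPKM, and next to it came Pomp, the assembly chaperone, at 146 and 274 FPKM.

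**Figure D3:**
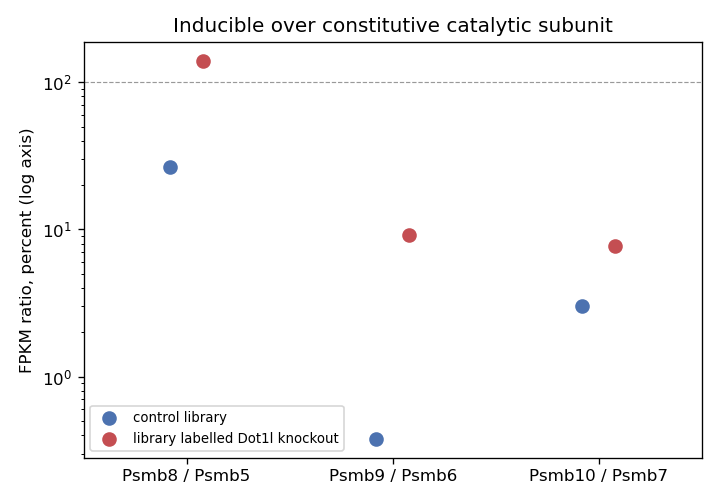
FPKM of each inducible catalytic subunit as a percentage of its constitutive counterpart (log axis), 1 point per library. In the library labelled knockout all 3 ratios are higher, and Psmb8 over Psmb5 passes 100% (26.4% in control, 139% in the other library).

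The plot of subunit ratios shows the same order of libraries in all 3 pairs, and a single pair in which the inducible transcript exceeded the constitutive one.

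The transporter and loading genes had smaller differences than Psmb8 and Psmb9. Tap1 was 1.79 and 7.41 FPKM, and Tap2 3.21 and 16.8 FPKM, with ratios of 4.14 and 5.24. These encode the paired chains of the peptide transporter, and Tap1 shares its promoter region with Psmb9, whose sequence is printed above. Tapbp, which encodes tapasin and bridges the transporter and the heavy chain, was 6.06 and 25.8 FPKM, a ratio of 4.26. Its relative Tapbpl, a peptide editor, was 1.09 and 3.04 FPKM and did not reach 2-fold on the log2(FPKM + 1) scale (0.95). Erap1, the aminopeptidase that trims peptides in the endoplasmic reticulum, was 8.63 and 21.8 FPKM, and its difference of 1.24 became 0.95, under the threshold, after the libraries were rescaled to equal sums. The general folding partners of class I were nearer to equal. Of all 13296 genes that met the minimum, 9005 lay within 2-fold. In a list of 9 folding, translocation and trimming genes, 8 did, with Calr at 863 and 1147 FPKM, Canx at 274 and 269 FPKM and Pdia3 at 321 and 389 FPKM. The exception was Ero1l, an oxidase of disulphide formation, at 8.92 and 187 FPKM.

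Class II transcripts were low in control, with none above the 1.34 FPKM of H2-DMa. In the library labelled knockout 8 of the 10 class II rows reached 1 FPKM. Of 10 class II rows, 5 were listed at 0 in control and none in the other library. H2-Aa and H2-Ab1 encode the chains of I-A, the class II molecule of C57BL/6 mice. H2-Aa was listed at 0 in control and was 41.6 FPKM in the library labelled knockout. H2-Ab1 was 1.09 and 77.2 FPKM, a ratio of 70.9 with about 11.3 fragments behind the control value. The other classical rows were low in both libraries. H2-Eb1 was 0.199 and 1.46 FPKM, and H2-Eb2 0.0303 and 0.0679 FPKM. H2-Ea-ps, whose product C57BL/6 mice are known not to make, was listed at 0 and 2.86 FPKM. The class II rows summed to 2.732 FPKM in control, against 135.1 FPKM in the other library, a ratio of 49.4. The class I sum was 33.8 times the class II sum in control and 6.42 times it in the library labelled knockout.

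In the library labelled knockout, the genes that load and edit class II peptides were below the I-A chains in level. H2-DMa, which with a DMb chain forms the exchange factor that removes the invariant chain peptide, was 1.34 and 3.89 FPKM. H2-DMb1 and H2-DMb2 were listed at 0 in control and were 1.96 and 3.20 FPKM in the library labelled knockout, and their coding sequences are 95.9% identical, so their split is uncertain. H2-Oa and H2-Ob encode the inhibitor of that factor, which B cells and some dendritic cells carry. H2-Oa was listed at 0 and 2.74 FPKM, while H2-Ob was 0.0782 and 0.131 FPKM, about 1.98 and 2.94 fragments. All 8 class II rows that met the minimum were higher (median 1.92), but 6 of the 8 met it only through the library labelled knockout, which fixed their direction. The calls were lost for H2-DMa after rescaling to equal sums (0.98) or equal upper quartiles (0.95), and for H2-Eb1 after the latter (0.95). With a pseudocount of 5 only H2-Aa and H2-Ab1 passed as higher, and the median was 0.64. With a minimum of 5 FPKM the same 2 genes were left.

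Cd74 encodes the invariant chain, which holds the class II groove until the endosome, and was 0.480 FPKM in the control library, against 59.9 FPKM in that labelled knockout, a ratio of 124.7. It stood below the summed class II chains in both libraries, at 0.176 FPKM of Cd74 for each FPKM of class II in control and 0.443 in the other. Ciita, the coactivator that class II genes depend on, was 0.0387 FPKM and 1.08 FPKM. The control value rests on about 2.30 fragments and the other on about 56.7. Its ratio was 27.8, but on the log2(FPKM + 1) scale the difference was 0.9989, just under the threshold, and with a pseudocount of 0.1 it was 3.08. After rescaling to equal sums the difference was 1.47, and with equal upper quartiles 0.92. Cd74 and Ciita met the minimum only through the library labelled knockout, which fixed their direction. Ifi30, a lysosomal thiol reductase that unfolds antigens and that is not restricted to class II cells, was 11.9 and 183 FPKM, a ratio of 15.4. The endosomal proteases that degrade antigen and invariant chain were also higher, in 5 of 6 listed genes (beside 16.8% of all genes), with a median of 3.16. Ctss, the cathepsin that cleaves the invariant chain in many antigen-presenting cells, was 1.78 and 257 FPKM, and Lgmn 26 and 351 FPKM. Ctsl was 107 and 180 FPKM.

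The costimulatory ligands of CD28 were at or near 0 in control. Cd86 was 0.248 FPKM in control, about 5.94 fragments, and 80.1 FPKM in the other library, a ratio of 323. Cd80 was listed at 0 and 3.35 FPKM. Cd86 was thus 23.9 times Cd80 per length in that library. Both genes met the minimum only through the library labelled knockout, which fixed their direction. Among 9 other costimulators and checkpoint ligands in the files, 6 met the minimum, of which 4 were higher and none lower, beside 16.8% of all genes higher. Of the 6, 3 met it only through the library labelled knockout, which fixed their direction. Cd274, which encodes PD-L1, was 0.252 and 8.30 FPKM, Pdcd1lg2, which encodes PD-L2, was listed at 0 and 2.92 FPKM, and Tnfsf9 was 1.14 and 8.86 FPKM. Cd40 was 6.11 and 5.46 FPKM.

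Known regulators of these genes were listed as well. Of 16 listed, 15 met the minimum, of which 4 were higher, 1 lower and 10 within 2-fold, with a median of 0.47. Of all 13296 genes at that minimum, 9005 lay within 2-fold, 16.8% were higher and 15.49% lower. Irf8, a transcription factor of myeloid cells, was 1.45 and 18.8 FPKM. Ifngr1 was 22.2 and 46.8 FPKM. Irf2, at 15.1 and 31.2 FPKM, lay just past the threshold (1.0006), and Irf1, at 36.8 and 73.7 FPKM, just under it (0.98). The subunits of the RFX complex that binds the X box were close to equal or lower, with Rfx5 at 4.12 and 3.99 FPKM and Rfxap at 11.5 and 10.8 FPKM. Those of the Y box factor NF-Y divided, with Nfya at 11.4 and 24.3 FPKM and Nfyc at 18.9 and 6.61 FPKM. Nlrc5, the coactivator of class I genes, was under 1 FPKM in both libraries, at 0.128 and 0.354 FPKM. Of 7 listed interferon genes, 6, including Ifng, were at 0 in both libraries and Ifnb1 was 0.176 and 0.182 FPKM. Of 7 class I-like genes outside the H2 rows, Fcgrt, the neonatal Fc receptor, was 34.2 and 189 FPKM and Hfe 2.94 and 22 FPKM, while Mr1 was 8.50 and 6.02 FPKM and Procr 48.5 and 24.6 FPKM.

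The MHC genes lie beside many genes of other function, so the neighbours were described as well. In RefSeq's gene order (GRCm38.p6), 87 genes that are no members lie between Tapbp and H2-M2 on chromosome 17 and met the minimum. Of these 20 (23%) were higher and 4 (4.6%) lower, with a median of 0.21, beside 16.8% higher and 15.49% lower of all 13296 genes at that minimum. In the same stretch 21 of 25 members were higher and 1 lower, and of the 12 members on other chromosomes, such as B2m, Cd74 and Cd86, 6 were higher and none was lower. Many of these met the minimum only through the library labelled knockout. Among genes at 1 FPKM or more in control, where 11.1% of all genes were higher, 11 of 15 members in the stretch, 3 of 8 members on other chromosomes and 16 of 82 other genes of the stretch were higher. H2-L, H2-Q8, H2-T9 and H2-Ea-ps met the minimum but were not placed in this order.

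Markers of other cell types that express these genes differed between the same libraries. Beside ratios of 49.4 for the class II sum and 9.39 for the class I sum, the macrophage marker sum given above had a ratio of 60.8. Of that list C1qc and Timd4 were at 0 in control, and none was at 0 in the library labelled knockout. Mast cell markers summed to 110.6 and about 13020 FPKM, with Fcer1a at 0 in control. Of 12 dendritic and Langerhans cell markers 6 met the minimum, 3 of them only through the library labelled knockout, which fixed their direction. Of the 6, 3 were higher, 1 lower and 2 within 2-fold, beside 16.8% of all genes higher and 15.49% lower. The list summed to 38.14 and 153.9 FPKM. Its largest value was that of Sirpa, which macrophages also express, at 18.0 and 128 FPKM. Dpp4, the marker counted as lower, was 11.5 and 3.10 FPKM. Defining genes of dendritic and Langerhans cells varied. Itgax was listed at 0 and 0.990 FPKM, Flt3 was 0.0836 and 0.657 FPKM, Zbtb46 was 7.53 and 7.94 FPKM, and Cd207 was at 0 in both libraries, while Cd209a was listed at 0 and 9.56 FPKM and Siglech at 0 and 1.42 FPKM. Of the B cell genes, Ms4a1 and Pax5 were at 0 in both libraries, Cd79a was 0.348 and 0.472 FPKM, and Cd79b was 0.394 and 4.04 FPKM. Pan-endothelial markers summed to 1311 FPKM in control against 278.7 FPKM in the library labelled knockout, and lymphatic markers to 843.8 and 614.2 FPKM. Lyve1 alone, at 526 and 552.5 FPKM, carried most of the lymphatic sum, and without it the list summed to 317.4 and 61.73 FPKM. Fibroblast markers summed to 3539 FPKM in control, above the pan-endothelial sum, and to 910.7 FPKM in the library labelled knockout. Keratinocyte markers summed to 176.4 and 81.04 FPKM. The part of these cell types in the antigen presentation values was not tested.

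**Figure D4:**
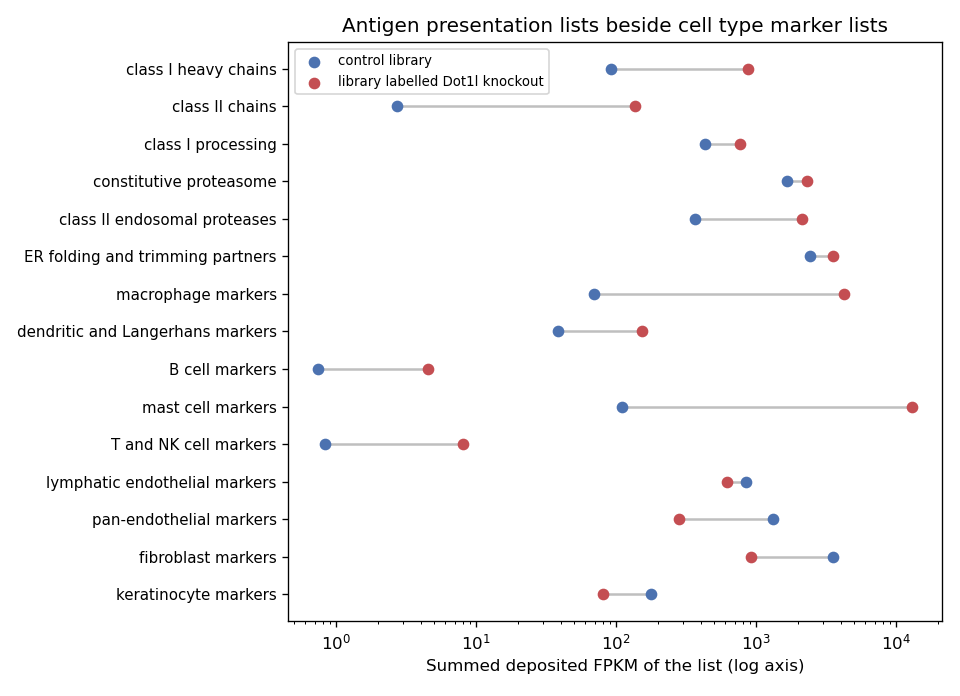
Summed deposited FPKM (log axis) of 3 member groups, 3 pathway lists and 9 cell type marker lists, 1 point per library. Class I heavy chains (92.33 and 867.4) and class II chains (2.732 and 135.1) have their higher point in the library labelled knockout, as have the macrophage and mast cell markers, while endothelial, fibroblast and keratinocyte markers have it in control.

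The plot of list sums compares whole groups, and the members were also divided by their level in control. Among the 11 members at 5 FPKM or more in control, 5 were higher, 1 lower and 5 within 2-fold, with a median of 0.91. Of all 8697 genes at that level 9.06% were higher and 17.3% lower, with a median of -0.076. Among the 30 members under 5 FPKM in control that met the minimum, 25 were higher and 1 lower, but 17 of the 30 met it only through the library labelled knockout, which fixed their direction. Of the 4599 such genes in all, 31.4% were higher and 12.1% lower. The members at 5 FPKM or more in control that were higher were H2-D1, H2-K1, Tapbp, Erap1 and Ifi30. This division by control level was chosen after the values were seen.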

How the data were processed

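Values are FPKM as deposited by the authors, 1 column per library. The submitters' processing notes name STAR 2.5.2b, Cufflinks 2.2.1, Cuffnorm, R 3.3.2 and build mm9, without their roles. No source at hand states the read length, the annotation or a scaling between libraries, so how Cufflinks divided reads among MHC copies is not known. Per the labels, RNA with an integrity number above 7.0 was used with the ScriptSeq v2 kit. Files were read with Python 3.11.15 and pandas 2.3.3. Differences are log2(FPKM + 1), with a minimum of 1 FPKM in either library and a 2-fold threshold. Depth was estimated from 159 and 175 low values of genes with only 1 GENCODE transcript, of 2500 nt or more, with 200 nt taken as the fragment length and at most 5 fragments, of which 83% and 76% lay within 0.1 of a whole number. Counting was run on a copy of the control values with set changes and no noise, which checks its arithmetic only. GENCODE M21 matched 56 of 60 members. Proteins were not used here, so coding identity replaced the planned protein identity. Named genes are all members, Dot1l, for each pathway list at most the 3 highest and 3 lowest of its genes at 10 FPKM or more (for lists of up to 9 genes, any at 1 FPKM or more), and the first 3 markers of a cell type list. Irf1, Irf2, Rfx5, Rfxap, Nlrc5, Ifng, Ifnb1, Cd274, Pdcd1lg2, Tnfsf9, Cd40, Sirpa, Dpp4, Cd207, Cd209a, Siglech, C1qc, Timd4, Fcer1a, Ms4a1 and Pax5 fall outside this rule and were chosen after their values were seen. Members and lists were chosen with earlier results of these data known. Alternatives were pseudocounts of 0.1 and 5, 3 rescalings, no minimum or 5 FPKM, and thresholds of 1.5-fold and 3-fold.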

Additional observations from a re-analysis of the deposited data

How the results depend on the processing

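No paired analysis was possible because there is 1 library per genotype; for the same reason leaving out a replicate was not possible. Of 194 recomputed values, 154 stayed on their side of the threshold with the same sign or, for counts, within 1.5 times the reported count, and no value past the threshold changed sign. A pseudocount of 5 lowered the counts of higher genes to 6 (class I heavy chains), 2 (class II), 4 (class I processing), 15 (all members) and 1323 (all genes), the lower counts to 1 member and 921 genes, and the medians of these 4 member groups to 0.68, 0.64, 0.87 and 0.74. With no minimum the class I median was 0.42, since rows near 0 entered. With a minimum of 5 FPKM 6 class I, 2 class II and 18 of all members were higher and 1 member lower. At 3-fold 5 class II genes were higher and 1 member lower, beside 1298 higher and 906 lower of all genes, and at 1.5-fold 3464 and 3450. Rescaling to a sum of 1000000 gave 3330 lower genes in all. The median of all genes turned from 0.003 to -0.33 with that rescaling and to -0.13 with equal upper quartiles. Leaving out the H2-Q, H2-T and H2-M rows left 4 higher class I genes, and summing class I rows left 0 lower members, since H2-D1, H2-K1 and H2-L dominate that sum. Keeping members at 1 FPKM or more in control, an alternative chosen after seeing the data, left 5 class I, 2 class II and 14 of all members higher. Values of a few fragments (Ciita, Cd74, Cd86 and Psmb9 in control) limit their ratios.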
